A study of Mus musculus with 6 samples.

Results

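The 10 genes described here encode the prolactin and growth hormone receptors (Prlr, Ghr), their kinase (Jak2), the transcription factors it activates (Stat5a, Stat5b), feedback inhibitors of the pathway (Cish, Socs2, Socs3) and the tryptophan hydroxylases that start serotonin synthesis (Tph1, Tph2). They were chosen by name from the 55536 genes of the count table, and they were selected on earlier results of these same libraries: the low Cish and Socs2 counts of the knockout libraries and the position of control replicate 3 were known. Genotype differences of the 10 genes, and the values of that library, are therefore given as a description, and their adjusted p-values are printed only to place them in the fit over all genes.

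RNA was taken from whole pancreatic islets of C57B1/6J mice of 2 genotypes, with 3 libraries each. Control mice were Klf4+/+;Gcg-iCre and knockout mice Klf4fl/fl;Gcg-iCre, so both groups carried the Gcg-iCre driver, a Cre recombinase under the glucagon gene that acts in alpha cells, and only the knockout group carried floxed alleles of the transcription factor gene Klf4. Age, sex and pregnancy are not stated in the labels, nor is it stated whether a library came from 1 mouse or a pool. Because whole islets were sequenced, fewer cells of a type and less RNA per cell cannot be told apart, and a change in alpha cells is diluted by the beta cells, which make up most of an islet.

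Prolactin and growth hormone bind related receptors that have no enzyme activity of their own and signal through the kinase JAK2. JAK2 phosphorylates STAT5A and STAT5B, which enter the nucleus and switch on target genes, among them Cish and Socs2, whose products dampen the same receptors. In the islets of pregnant mice, placental lactogens and prolactin act through this route on beta cells, which express Prlr strongly, and Tph1 is one of the most strongly induced genes, so that beta cells make serotonin. SOCS3 is also a feedback inhibitor, but it is best known as a target of STAT3 and of cytokines of the interleukin 6 family.

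The libraries held 101277200 to 110243918 counts. Most low counts were even numbers (85.9% to 88.2% of counts from 1 to 10), as when both mates of a read pair are counted, so counting error is given on pairs. Values below are normalized counts (counts divided by the library's DESeq2 size factor), listed for replicates 1, 2 and 3 in that order. Klf4, the targeted gene, had 3148, 2879 and 2015 in the controls and 2340, 2540 and 2277 in the knockouts, with groups that overlapped through control replicate 3 (log2 fold change -0.17 ± 0.15 SE, DESeq2 adjusted p = 0.774). Without that library each knockout was below both controls, with a mean of 0.792 of theirs. Xist was at 77938 to 108105 normalized counts in the controls and 12.4 to 30.2 in the knockouts, and the Y-linked gene Ddx3y was at 0 counts in every control and 5599 to 6265 in the knockouts. Genotype and sex thus cannot be told apart here, which holds for every genotype difference below. Among marker lists, the summed beta-cell list ran from 18758074 to 21862579 in controls and from 20965629 to 21294242 in knockouts, led by Ins2, with 1 of 10 genes past the threshold and lower. The macrophage list, led by C1qa, ran from 11159 to 12324 and from 11458 to 13185, with 3 of 7 genes past the threshold and higher. The alpha-cell list, led by Gcg, was lower in every knockout (3048080 to 3745111 against 4113224 to 5918512), with 3 of 8 genes past the threshold and lower.

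Control replicate 3 stood apart for some genes: of 15811 genes with a mean of at least 50 normalized counts, 62 were at least 1.5 times as high there as in each other library (0.392%) and 298 were at least 1.5 times lower. The other libraries had 13 to 163 such high genes and 37 to 138 such low genes. By number, only the low genes thus set control replicate 3 apart. Knockout replicate 1 stood apart too, with 163 genes at least 1.5 times above all the others, and its summed list of 8 hepatocyte genes was 82935 against 3422 to 7413 in the other libraries. Each library is given singly for this reason.

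To set the genes on a common scale, counts were divided by exon length and by the library total, which gives counts per kilobase of exon per 1e6 counts (RPKM). The length is that of all annotated exons of a gene together, and the transcripts in use were not determined. By the median of the 6 libraries the order of levels was Ghr (22.3 RPKM), Prlr (21.7), Stat5b (17.7), Jak2 (8.02), Cish (4.29), Socs3 (4.22), Socs2 (3.08), Stat5a (2.30), Tph2 (0.510) and Tph1 (0.0151). Taken over all 6 libraries, with both genotypes together, the ranges of most neighbours in this order overlapped. Ghr and Prlr overlapped (20.3 to 24.1 and 16.1 to 58.5 RPKM), as did Prlr and Stat5b (16.4 to 18.2), Jak2 (7.01 to 8.18) and Cish (1.43 to 9.56), Cish and Socs3 (2.91 to 6.36), Socs3 and Socs2 (1.58 to 5.38), and Socs2 and Stat5a (2.12 to 2.72). Stat5b lay above Jak2 and Stat5a above Tph2 without overlap. Within a genotype some overlapping neighbours were apart. Cish lay above Socs3 in every control (5.75 to 9.56 against 2.91 to 4.35 RPKM). In every knockout Cish lay below Socs3 (1.43 to 2.84 against 4.1 to 6.36) and below Jak2 (7.79 to 8.15). Tph2 and Tph1 overlapped across libraries only through control replicate 3, where Tph1 reached 0.339 RPKM, above the lowest Tph2 value of 0.292. Transcripts for the receptors, the kinase and STAT5B were thus present at levels well above those of the hydroxylases.

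**Figure D1:**
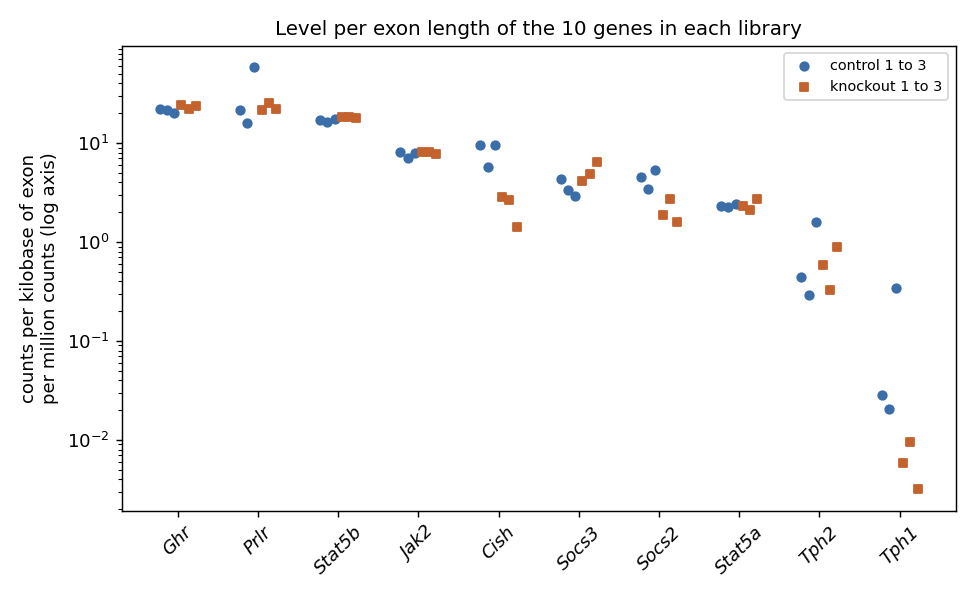
Level of each of the 10 genes in counts per kilobase of exon per 1e6 counts (log axis), ordered by the median; circles are the 3 controls and squares the 3 knockouts. Ghr, Stat5b, Jak2 and Stat5a form tight clusters, whereas Prlr, Tph2 and Tph1 each have 1 high circle, control replicate 3, at 58.5, 1.60 and 0.339.

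STAT5 binds DNA at a short palindrome, TTCNNNGAA, and the promoters of the 10 genes were searched for these letters in RefSeq windows (GRCm38.p6) that run from 250 bases before to 50 bases after each annotated start. The motif is its own reverse complement, so 1 scan reads both strands. No other motif was searched. Of the 32817 windows of the same length in the genome, 8.29% held at least 1 match and 0.457% held 2 or more. Windows were found for 9 of the 10 genes, all but Socs2, and 3 of their 15 windows held a match, in Cish, Socs3 and Prlr. The sites of the feedback genes Cish and Socs3 are shown first, then 250 bases before a start of Prlr and of Tph1, for which control replicate 3 exceeded the highest other library by the widest ratios among the members. Matches are in capitals.
Cish, plus strand, chr9:107296654-107296683: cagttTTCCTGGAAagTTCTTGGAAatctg
Socs3, minus strand, chr11:117969502-117969531: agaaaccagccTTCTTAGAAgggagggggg
Prlr, plus strand, chr15:10223656-10223905: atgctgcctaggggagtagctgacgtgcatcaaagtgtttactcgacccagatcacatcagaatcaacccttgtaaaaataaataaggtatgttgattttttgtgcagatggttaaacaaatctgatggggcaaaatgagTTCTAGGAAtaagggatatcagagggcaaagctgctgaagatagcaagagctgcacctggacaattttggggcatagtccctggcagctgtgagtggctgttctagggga
Tph1, minus strand, chr7:46672538-46672787: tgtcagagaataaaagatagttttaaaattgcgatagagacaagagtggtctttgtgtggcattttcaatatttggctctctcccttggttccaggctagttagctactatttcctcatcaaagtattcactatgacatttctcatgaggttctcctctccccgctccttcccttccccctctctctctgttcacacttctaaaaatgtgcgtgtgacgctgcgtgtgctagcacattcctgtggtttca

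The pair of matches in Cish begins at the RefSeq start itself, position 107296659, which lies inside the span of the GENCODE M21 gene (107296026 to 107302784). The match in Socs3 begins 154 bases before its start and that in Prlr 110 bases before the second of its 3 RefSeq starts. The Tph1 window shown holds no match, nor does the window of its other start or that of Tph2. A match is a description of the letters, not evidence that STAT5 binds there, and the counts do not show which start was used.

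The receptors came first. Prlr (ENSMUSG00000005268, chromosome 15, 10177238 to 10349180, plus strand, GENCODE M21 on GRCm38) had 33761, 25868 and 96400 normalized counts in the controls and 34027, 41007 and 34199 in the knockouts. The other 5 libraries lay between 25868 and 41007, and control replicate 3 was 2.35 times the highest of them and 3.23 times the mean of the other controls. The log2 fold change of knockout against control was -0.51 ± 0.63 (SE, n = 3 each; DESeq2 adjusted p = 0.871), and without control replicate 3 it turned to 0.29 ± 0.12 (adjusted p = 0.153). Without that library every knockout was above both remaining controls, by 1.22 times in the means, though the closest values were 34027 and 33761. The share of all genes that separate without that library was not counted, here or for Klf4 and, below, Stat5b. Prlr shares exon sequence on its own strand with the predicted gene Gm21973, which had 0 counts in each library.

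Ghr (chromosome 15, 3317760 to 3583492, minus strand), the growth hormone receptor, did not share the high value of control replicate 3. It had 20529, 20245 and 19749 normalized counts in the controls and 22757, 21401 and 21886 in the knockouts, and the groups did not overlap. The difference was small, 0.13 on the log2 scale (SE 0.06; adjusted p = 0.408 in DESeq2), with a 95% interval from 0.25% to 18.8% higher. Within a library, the ratio of Prlr to Ghr on the RPKM scale was 0.971, 0.754 and 2.88 in the controls and 0.882, 1.13 and 0.922 in the knockouts. On that scale the 2 receptors were near parity in all libraries but control replicate 3. The ratio depends on the exon lengths used, 15339 bases for Prlr and 9053 for Ghr. In normalized counts Prlr was above Ghr in every library.

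The kinase and the STAT5 genes differed little between the groups. Jak2 (chromosome 19, 29251828 to 29313080) had 4176, 3706 and 4326 normalized counts in the controls and 4269, 4288 and 4013 in the knockouts, and its log2 fold change of 0.04 ± 0.09 (SE) had a 95% interval from -8.52% to 15.9%. Stat5b (chromosome 11, 100780731 to 100850724) was at 9550, 9520 and 10390 in the controls and 10476, 10647 and 10199 in the knockouts, a log2 fold change of 0.09 ± 0.07 with an interval from -3.33% to 16.9%. Stat5a (chromosome 11, 100859351 to 100885169) was at 1670, 1700 and 1872 in the controls and 1709, 1606 and 1986 in the knockouts, a log2 fold change of 0.02 ± 0.11 with an interval from -13.0% to 17.5%. The groups of all 3 genes overlapped, and their DESeq2 adjusted p-values were 0.943, 0.735 and 0.984. The overlap of Stat5b came through control replicate 3 alone, and without it each knockout was higher than both controls (log2 fold change 0.13 ± 0.05 SE, adjusted p = 0.136). Stat5b exceeded Stat5a by 6.61 to 8.54 times on the RPKM scale in each library. Counts of the 2 genes are uncertain to the extent that reads from their near-identical coding sequences were shared, and an exon of Stat5a overlaps Stat3 on the opposite strand, where the strand setting of the counting is not given.

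**Figure D2:**
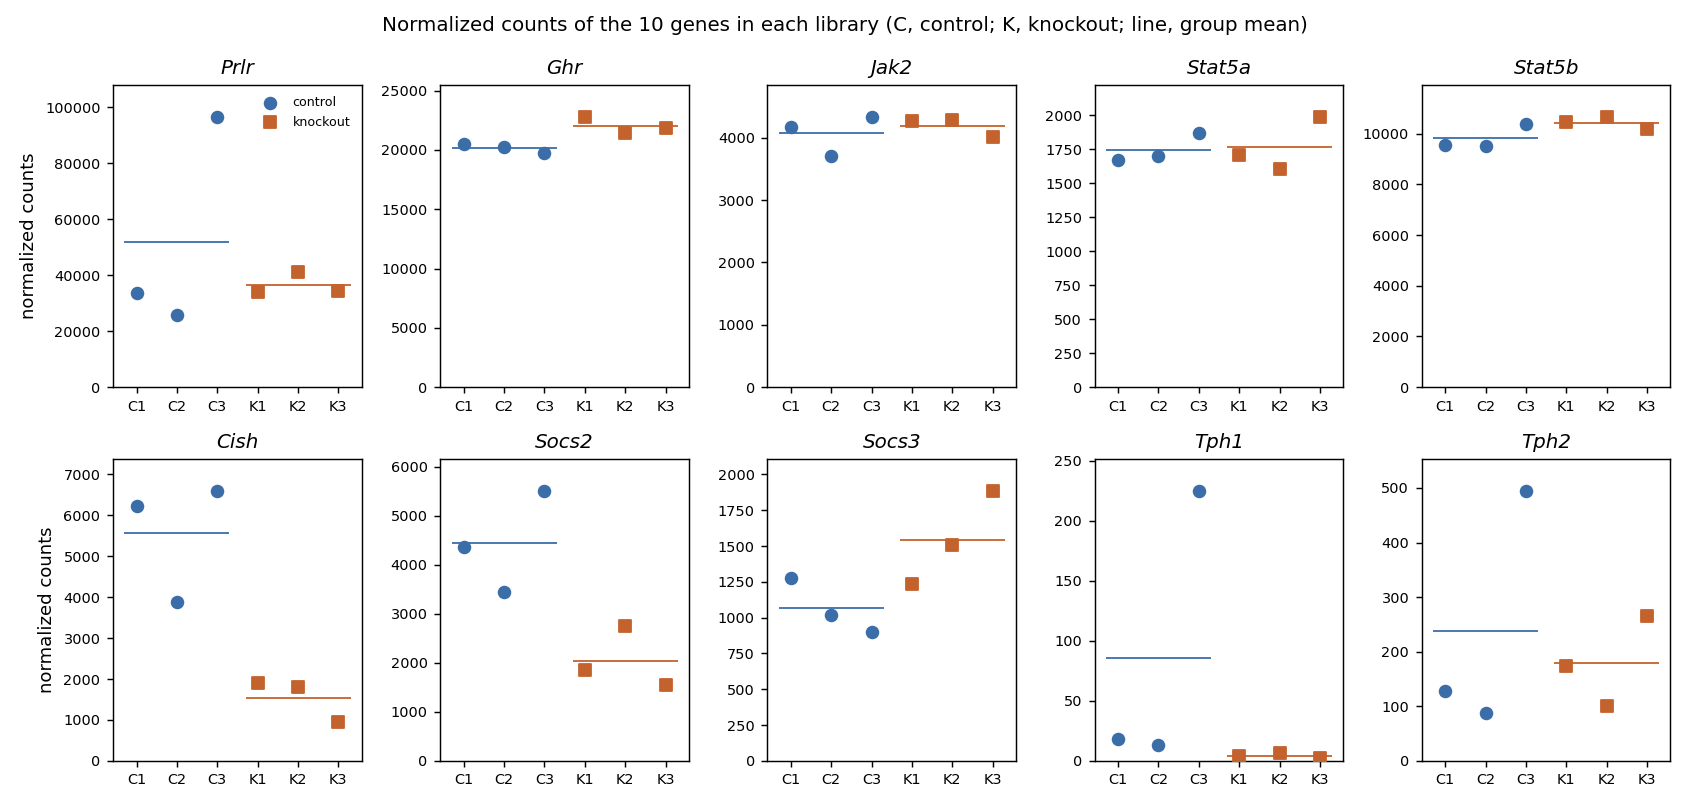
Normalized counts of each gene (y axis from 0) in control replicates 1 to 3 (C1 to C3, circles) and knockout replicates 1 to 3 (K1 to K3, squares); lines are group means. Cish and Socs2 are lower in all 3 knockouts than in any control, and Prlr, Tph1 and Tph2 have their highest value in C3, at 96400, 224.9 and 494.3.

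The feedback inhibitors divided. Cish (ENSMUSG00000032578, chromosome 9, 107296026 to 107302784, plus strand), which encodes an SH2 protein that binds activated receptors of this family, had 6217, 3877 and 6592 normalized counts in the controls and 1896, 1806 and 942 in the knockouts. The highest knockout, at 1896, lay well under the lowest control, at 3877, and the knockout mean was 0.278 of the control mean. The log2 fold change was -1.85 ± 0.38 (SE; DESeq2 adjusted p = 0.000377), and without control replicate 3 it was -1.70 ± 0.44 (adjusted p = 0.00442). In edgeR's quasi-likelihood test the adjusted p was 0.0553.

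Socs2 (ENSMUSG00000020027, chromosome 10, 95385362 to 95417180, minus strand), the main brake on growth hormone signalling, was at 4374, 3448 and 5508 normalized counts in the controls and 1847, 2747 and 1542 in the knockouts. The groups did not overlap, and the knockout mean was 0.460 of the control mean. Its log2 fold change was -1.12 ± 0.32 (SE; DESeq2 adjusted p = 0.0279; edgeR adjusted p = 0.172), and without control replicate 3 it was -0.93 ± 0.35 (adjusted p = 0.0924). On the RPKM scale Cish was 1.67 to 2.11 times Socs2 in the controls and 0.907 to 1.52 times in the knockouts.

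Socs3 (chromosome 11, 117966079 to 117970047, minus strand) went the other way in the means. It had 1277, 1017 and 903 normalized counts in the controls and 1233, 1507 and 1884 in the knockouts, and the groups overlapped through control replicate 1 and knockout replicate 1. The log2 fold change of 0.53 ± 0.17 (SE) did not pass the threshold (DESeq2 adjusted p = 0.0692; edgeR adjusted p = 0.366). It did pass without control replicate 1 (adjusted p = 0.0215) and without knockout replicate 1 (0.0291). Control replicate 3, highest for Cish and Socs2, was the lowest for Socs3. The ratio of Socs2 to Socs3 on the RPKM scale was accordingly 1.04, 1.03 and 1.85 in the controls and 0.454, 0.553 and 0.248 in the knockouts. A list of 12 immediate early genes, which respond to handling of tissue as Socs3 can, was also lowest in control replicate 3, at a sum of 61706 against 83537 to 95316 in the other libraries, and its part in the Socs3 values was not tested.

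Of the 9 members given an adjusted p-value in DESeq2, 2 passed 0.05, Cish and Socs2, both lower in the knockouts. Over all genes 389 of 17797 genes passed (2.19%), 117 of them lower (0.657%). In edgeR 29 of 25210 genes passed (0.115%) and no member did; 2391 genes had an unadjusted p under 0.05 there, Cish, Socs2, Socs3 and Tph1 among them. Without control replicate 3, 952 of 15160 genes passed (6.28%) and Cish was the only member. Groups did not overlap for 4 of the 10 members (Ghr higher, Cish, Socs2 and Tph1 lower). Of the 9 members with a mean of at least 50, which leaves out Tph1, it was 3, beside 18.0% of all genes with such a mean. Since the genotype contrast was known when the members were chosen, nothing is read from these counts.

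**Figure D3:**
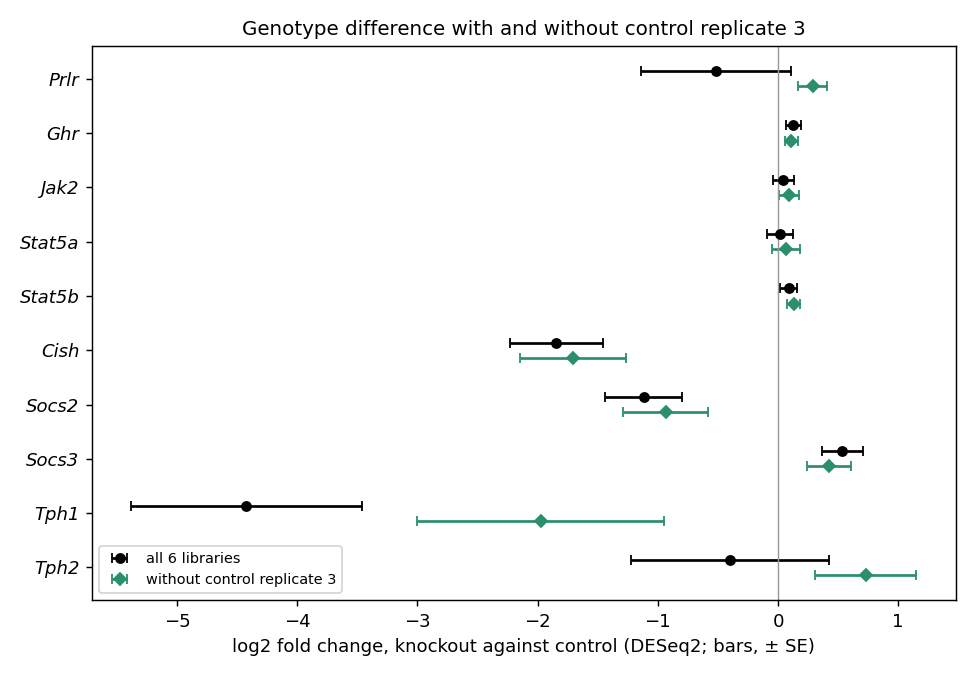
Log2 fold change of knockout against control for each gene, with all 6 libraries (circles) and without control replicate 3 (diamonds); bars are ± 1 SE. Without that library Cish is at -1.70, Socs2 at -0.93 (no longer past the threshold, adjusted p = 0.0924), and Prlr and Tph2 move across 0, to 0.29 and 0.73.

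Other measures divided the libraries as Cish and Socs2 did. The summed list of 10 exocrine genes, led by Pnlip, ran from 631010 to 1277513 normalized counts in controls and from 1600181 to 2262072 in knockouts, with 0 of 10 genes past the threshold. The list of 8 mesenchymal genes, led by Col3a1, ran from 80941 to 93585 and from 123203 to 128621, with 5 of 8 genes past it and higher. The lymphocyte list of 7 genes was lower, at 1646 to 1764 against 1415 to 1447, with 0 past it. The list of 8 hepatocyte genes, led by Alb, was at 3422 to 3880 in controls and at 82935, 7413 and 3901 in knockouts, with 3 of 8 past it and higher. The alpha-cell and mast-cell lists, given where they are described, divided the groups too. The part of these lists in the Cish and Socs2 values was not tested.

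The annotation places other transcripts beside both genes. Gm17040, a predicted gene on the opposite strand whose exons overlap Cish, had 18.9, 31.7 and 111.4 normalized counts in the controls and 7.56, 8.25 and 2.00 in the knockouts (log2 fold change -3.18 ± 0.80 SE, DESeq2 adjusted p = 0.00624). Its knockout mean was 0.110 of the mean of all controls and 0.235 of that of control replicates 1 and 2. Gm17041, also opposite, was at 52.6, 17.3 and 38.2 in the controls and 9.45, 12.4 and 2.00 in the knockouts (adjusted p = 0.105). Both lay lower in each knockout than in any control, as Cish did, and without a known strand setting their reads cannot be told apart from those of Cish. Another transcript, 5730420D15Rik (chromosome 10, 95417375 to 95428640, plus strand), starts 194 bases from the upstream end of Socs2 and runs the other way. It was at 65.5, 70.1 and 288.5 normalized counts in the controls and 54.8, 51.6 and 44.9 in the knockouts, so it was lower in each knockout than in any control and 4.12 times as high in control replicate 3 as in any other library. These 3 transcripts were chosen after their values were seen.

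Tph1 (ENSMUSG00000040046, chromosome 7, 46644641 to 46672537, minus strand) encodes the tryptophan hydroxylase of gut and of pregnant islets. Its raw counts were 18, 14 and 212 in the controls and 4, 6 and 2 in the knockouts, all of them even. Exact Poisson 95% intervals, taken on pairs of reads, given in counts and covering counting error only, were 174 to 256 for control replicate 3, 8.23 to 34.2 and 5.63 to 28.8 for the other controls, and 0.484 to 14.4, 1.24 to 17.5 and 0.0506 to 11.1 for the knockouts. Control replicate 3 lay far above every other library, 12.6 times the highest of them after normalization. The other controls had more counts than all 3 knockouts, though their intervals overlapped those of each knockout.

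DESeq2 gave Tph1 no p-value, because its Cook's distance filter sets aside genes in which 1 library dominates the fit. The log2 fold change was -4.42 ± 0.96 (SE) and was -1.97 ± 1.03 without control replicate 3 (unadjusted p = 0.0542, with no adjusted p given). With the filter off, the adjusted p was 0.000777, and in edgeR it was 0.288. The size of the Tph1 difference thus came largely from control replicate 3, and at these counts the difference of the remaining libraries rests on 18 and 14 against 4, 6 and 2 counts.

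Tph2 (chromosome 10, 115078641 to 115185022, minus strand), the hydroxylase of serotonergic neurons, was also highest in control replicate 3. It had 128.9, 88.3 and 494.3 normalized counts in the controls and 173.8, 101.1 and 265.4 in the knockouts. Control replicate 3 was 1.86 times the next library, knockout replicate 3, and the groups overlapped. The log2 fold change was -0.40 ± 0.82 (SE; DESeq2 adjusted p = 0.943) and turned to 0.73 ± 0.42 without control replicate 3 (adjusted p = 0.359). On the RPKM scale Tph2 was 15.5 and 14.1 times Tph1 in control replicates 1 and 2, 4.71 times in control replicate 3, and 35.0 to 285.0 times in the knockouts, the last values resting on 2 to 6 Tph1 counts. Tph2 was therefore the more abundant hydroxylase transcript in all 6 libraries.

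Mast cells, which also express Tph1, were followed by 7 markers. Their sum was 2177 normalized counts in control replicate 3 and 2043 and 2156 in the other controls, and it was higher in the knockouts, at 2538 to 3388. It was led by Kit, which passed the threshold and was higher in the knockouts and which other cells express too. The mast-cell markers Mcpt4 and Fcer1a were at 0 counts in all 6 libraries. The remaining mast-cell markers are not given singly. A list of 7 genes of enterochromaffin cells and neurons was led by Chga, which islet cells express strongly. Its sum was 1779124 in control replicate 3 and 1362755 to 1648249 elsewhere. The part of these cells in the Tph1 and Tph2 values was not tested.

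Control replicate 3 was then described across the pathway, as 1 library with no test. It was the highest of the 6 libraries for 6 of the 10 members (Prlr, Jak2, Cish, Socs2, Tph1 and Tph2). Of the 9 members with a mean of at least 50, which leaves out Tph1, it was the highest for 5, beside 25.6% of all genes with such a mean. It was at least 1.5 times every other library for Prlr, Tph1 and Tph2. By that ratio Prlr ranked 12 and Tph2 ranked 23 among the 15811 genes; Tph1, with a ratio of 12.6, had too low a mean to be ranked. The position of this library was known when the members were chosen, so these counts describe it and support nothing.

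**Figure D4:**
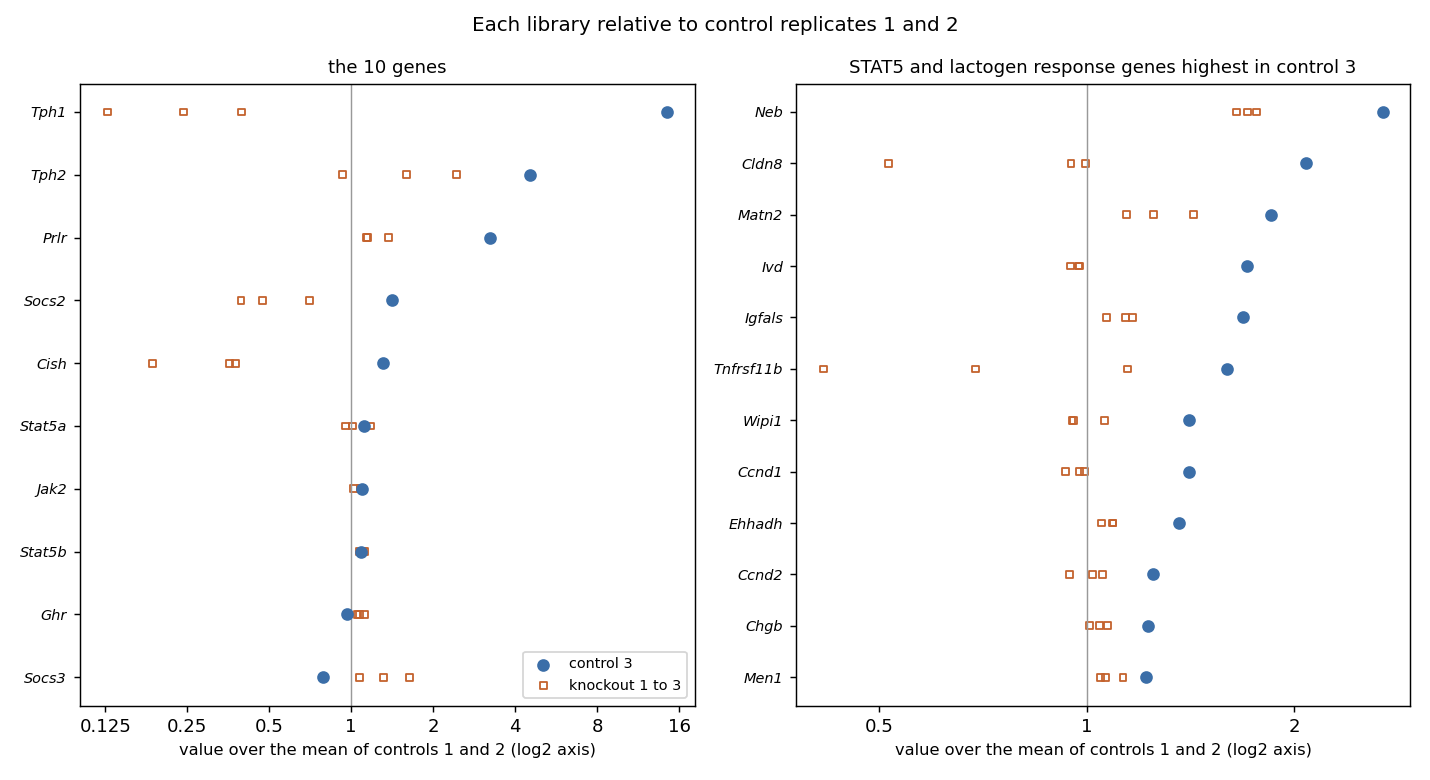
Normalized count of control replicate 3 (filled circles) and of each knockout (open squares), each divided by the mean of control replicates 1 and 2 (log2 axis), for the 10 genes (left) and for the 12 of 28 genes of the STAT5 and lactogen response list that were highest in control replicate 3 (right). Tph1, Tph2 and Prlr lie at 14.4, 4.55 and 3.23, and Neb, Cldn8, Matn2 and Ivd at 2.69, 2.08, 1.85 and 1.71.

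A list of 28 genes known as STAT5 targets or as lactogen-responsive in islets, was set beside the members. In the genotype fit 1 of the 28 passed and was lower, beside 2.19% of all genes past the threshold and 0.657% past it and lower. An unadjusted p under 0.05 was given to 10 of the 28 in DESeq2 and 8 in edgeR, beside 9.03% and 9.48% of all genes, and groups did not overlap for 10 of the 28, beside 18.0%. The list was chosen with earlier results of these data known, so these shares support nothing. Aard averaged 1047 ± 109 normalized counts in control and 711 ± 27.5 in knockout islets (SD of 3 libraries). Its log2 fold change was -0.56 ± 0.12 SE, with an adjusted p of 0.000858 in DESeq2 and 0.172 in edgeR. The list's median log2 fold change was -0.04, against -0.01 over all genes tested. The list was not sorted by the direction in which each gene responds, so its median does not measure pathway output. The list's most abundant members per length were Chgb, which encodes a granule protein (652 RPKM, log2 fold change -0.05), Slc2a2, the glucose transporter of beta cells (172 RPKM, -0.24), and the cyclin gene Ccnd2 (145 RPKM, -0.10), none of which passed. The ranges of Slc2a2 (139 to 201 RPKM) and Ccnd2 (129 to 170) overlapped.

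The same list was read in control replicate 3. That library was the highest of the 6 for 12 of the 28 genes and at least 1.5 times every other library for 3: Ivd, Cldn8 and Neb. Ivd, which encodes a mitochondrial enzyme of leucine breakdown, was at 9664, 9503 and 16394 normalized counts in the controls and 9322, 9082 and 9368 in the knockouts, so 5 libraries lay within 9082 to 9664. Cldn8, a tight junction gene, was at 170.6, 115.2 and 297.0 in the controls and 73.7, 142.3 and 135.7 in the knockouts. Neb, the nebulin gene, was at 401.7, 246.7 and 872.0 in the controls and 572.3, 554.8 and 534.9 in the knockouts. Igfals, a growth hormone target in liver, was at 5952, 5127 and 9378 and at 6305, 5922 and 6460. Matn2, a matrix protein gene, was at 2817, 2867 and 5269 in the controls and 3247, 3554 and 4068 in the knockouts. Over all genes with a mean of at least 50 these shares were 25.6% and 0.392%. The JAK-STAT, ligand and receptor, and serotonin lists taken up next held 25, 20 and 20 genes with such a mean. Among these, control replicate 3 was the highest for 4, 3 and 5 genes and at least 1.5 times every other library for 0. The lists were chosen with the position of this library known, so these counts are a description and support nothing. These 5 genes were chosen after their values were seen.

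The rest of the JAK-STAT pathway was compared between the genotypes with a list of 26 kinases, STATs, SOCS and PIAS inhibitors, phosphatases and adaptors outside the members. In DESeq2 0 of the 25 given an adjusted p-value passed, with 4 at an unadjusted p under 0.05, and in edgeR 0 passed, with 5 at an unadjusted p under 0.05. Of all genes 2.19% passed in DESeq2 and 0.115% in edgeR, and an unadjusted p under 0.05 was given to 9.03% of those with a p-value in DESeq2 and 9.48% in edgeR. By the median, the most abundant per length were the phosphatase gene Ptpn11 (32.1 RPKM, log2 fold change 0.10 ± 0.08 SE), the kinase gene Jak1 (29.1 RPKM, 0.03 ± 0.06) and Pias2 (18.2 RPKM, -0.02 ± 0.07). The ranges of Ptpn11 and Jak1 overlapped. That of Pias2 (17.1 to 19.1 RPKM) overlapped those of Ncoa1 (17.1 to 19.6) and Stat3 (15.6 to 23.8), so the order of these genes is not settled. The widest positive value was that of Jak3, at 1419, 1251 and 1214 normalized counts in the controls and 2583, 1632 and 3808 in the knockouts, a log2 fold change of 1.05 ± 0.35 (DESeq2 adjusted p = 0.084); it was chosen after its values were seen. Lymphocytes are known to express Jak3, and the lymphocyte list was at 1646 to 1764 in controls and 1415 to 1447 in knockouts; its part in the Jak3 values was not tested.

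The ligands of the prolactin and growth hormone receptors had no counts. Prl, Gh and the placental lactogen genes Prl3b1 and Prl3d1 were at 0 counts in every library, which allows up to 3 read pairs, or 6 counts, out of at least 101277200; hormone from the circulation leaves no transcript in the islet. Among 33 ligand and cytokine receptor genes, 22 had enough counts for an adjusted p-value and 0 passed in DESeq2, with 3 at an unadjusted p under 0.05 (edgeR 0, with 4), beside the same shares of all genes. By the median, the most abundant receptors per length were Il6ra (37.5 RPKM, log2 fold change 0.20 ± 0.09 SE), Cntfr (33.3 RPKM, -0.01 ± 0.11) and Lifr (19.2 RPKM, 0.17 ± 0.11), which signal mainly through STAT3. The ranges of Il6ra and Cntfr overlapped, as did those of Lifr (14.4 to 20.8 RPKM) and Il6st (14.9 to 24.7).

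Genes that handle serotonin and its cofactor were followed in a list of 34. Of the 24 given an adjusted p-value in DESeq2, 1 passed and was lower and 3 passed and were higher, beside 2.19% of all genes. In edgeR 0 passed, beside 0.115% of all genes. An unadjusted p under 0.05 was given to 8 genes of the list in DESeq2 and 7 in edgeR, beside 9.03% and 9.48% of all genes. The list was chosen with earlier results of these data known, and nothing particular to it is read from these shares. The gene that was lower was Maob, a monoamine oxidase that breaks down amines and, with Pcbd1, among the most abundant of the list (medians of 68.0 and 66.0 RPKM, with overlapping ranges). It averaged 21833 ± 303 normalized counts in control and 17749 ± 990 in knockout islets (SD of 3 libraries), which is -0.30 on the log2 scale (SE 0.07; DESeq2 adjusted p = 0.00222; edgeR adjusted p = 0.186), and it passed in 13 of 14 alternatives. Control replicate 3 did not stand apart for it, at 21942 against 21490 and 22067.

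Slc7a5 and Tgm2 were among the genes that were higher. Slc7a5, a subunit of a transporter that carries tryptophan, rose from 10030 ± 1413 to 13228 ± 299 (SD, n = 3 each; 0.40 ± 0.10 SE on the log2 scale, DESeq2 adjusted p = 0.00739; edgeR adjusted p = 0.21) and passed in 8 of 14 alternatives. Tgm2, whose enzyme can attach serotonin to proteins, rose from 2647 ± 76.1 to 3396 ± 324 (0.36 ± 0.09, DESeq2 adjusted p = 0.0121; edgeR adjusted p = 0.196) and passed in 9 of 14 alternatives.

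The remaining steps of serotonin synthesis and storage were present. Ddc, the decarboxylase that follows tryptophan hydroxylase, had 28473, 29101 and 35937 normalized counts in the controls and 25884, 26285 and 27594 in the knockouts (61.2 RPKM). Its groups did not overlap and control replicate 3 was the highest, but the log2 fold change of -0.23 ± 0.10 (SE) did not pass (DESeq2 adjusted p = 0.266). Pcbd1, which recycles the hydroxylase cofactor, was at 66.0 RPKM with a log2 fold change of -0.06 ± 0.09. The vesicle transporters Slc18a1 and Slc18a2 were at 2.88 and 0.450 RPKM and the serotonin transporter Slc6a4 at 0.0316 RPKM, and control replicate 3 was not above the other libraries by more than 1.06 times for any of these 3. Ddc and these transporters were chosen after their values were seen.

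Finally, the genes whose levels followed Cish most closely over the 6 libraries were listed, by Pearson's r of log2(normalized count + 1) among 15810 genes with a mean of at least 50. The highest were Syncrip (r = 0.99), Zfp24 (0.99), Fbxo38 (0.99), Mrpl16 (0.99) and Tmem115 (0.99), whose log2 fold changes were -0.10, -0.13, -0.13, -0.18 and -0.13. Each was lower in all 3 knockouts than in any control, and none passed the threshold. Socs2 ranked 47, with r = 0.95, while Prlr had r = 0.40, Tph2 0.09, Ghr -0.81 and Socs3 -0.83. The 6 points share the split by genotype, so these values describe the likeness of profiles and carry no test.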

How the data were processed

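Polyadenylated RNA of isolated islets was sequenced. The deposited table holds raw counts of reads per gene, 1 column per library; cutadapt trimming is named in its title, and STAR, featureCounts and mm10 per the submitters' processing notes, without settings, so the strand setting is not given in the sources used here. All 55536 identifiers and symbols are those of GENCODE M21 (GRCm38), which gave coordinates and exon lengths; 0 columns were unused. Labels do not say that libraries are separate mice, so p-values measure the spread between these samples, which may be technical; within-group pairs differed by 40.0 to 120.1 times the chi-square degrees of freedom, so none was 1 library deposited again. Even numbers made up 85.9% to 88.2% of counts from 1 to 10, so both mates of most pairs appear to have been counted; Poisson intervals and the floor of 3 were taken on pairs.

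DESeq2 1.42.0 (R 4.3.3), the design the series states, was fitted to all genes with at least 10 counts in total, with median-of-ratios size factors, genotype as the only term, the Wald test and Benjamini-Hochberg adjusted p-values (threshold 0.05). Alternatives were the edgeR 4.0.16 quasi-likelihood test, TMM factors, other filters, a threshold of 0.1, a replicate block and each library left out. RPKM used exon-union lengths and library totals. Named genes were the 10 members, Klf4, list genes past the threshold, the 3 most abundant per length in each list, the 5 closest to Cish and others where stated. The values of 1 list gene past the threshold are not reported here. Members and lists were chosen with earlier results of these data known. Floors and intervals cover counting error only.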

Additional observations from a re-analysis of the deposited data

How the results depend on the processing

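Of 140 results of the 10 members under 14 alternatives, 118 had the same sign and the same call, 7 lost a call, 9 gained one and 6 changed sign. All 6 changes of sign came when 1 library was left out: Prlr ran from -0.84 to 0.29 on the log2 scale, Tph2 from -0.79 to 0.73, Jak2 from -0.021 to 0.0889 and Stat5a from -0.0769 to 0.0813. Prlr and Tph2 turned without control replicate 3, Jak2 without control replicate 2, and Stat5a without control replicate 1, control replicate 2 or knockout replicate 3. Cish ran from -2.05 to -1.59 over the alternatives and missed the threshold in edgeR alone (adjusted p = 0.0553). Socs2 ran from -1.39 to -0.93 and passed in 8 of 14, failing in edgeR, under the block and without control replicate 1, control replicate 3, knockout replicate 1 or knockout replicate 3.

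Over all genes the count of 389 became 29 in edgeR and 614 at a threshold of 0.1, and 153 to 952 when 1 library was left out, lowest without knockout replicate 1 and highest without control replicate 3. The JAK-STAT list went from 0 to 2 at 0.1 and to 0 to 3 with 1 library left out; the ligand and receptor list from 0 to 2 at 0.1 and to 0 to 1; the STAT5 and lactogen list from 1 to 0 in edgeR, 3 at 0.1 and 1 to 4; the serotonin list from 4 to 0 in edgeR and to 1 to 4. The serotonin count was 1 without control replicate 1 or 2 and 2 without knockout replicate 2 or 3. For these counts the cause was not tested.

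With the replicate number as a block, 405 genes passed in all and 0, 0, 1 and 4 in these lists. Under the block Cish was -1.87 (adjusted p = 0.0063), Socs2 -1.14 (0.163) and Tph1 -3.16 (0.0254). Same-numbered libraries did not deviate together (correlations of -0.048, -0.059 and 0.01), so the numbers are not taken to pair them. Among the members depth limits Tph1 most, at 1 to 9 read pairs outside control replicate 3.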
